A study of Rattus norvegicus with 4 samples.

Results

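Carriers of amino acids and amines were examined in cultured neonatal rat ventricular cardiomyocytes with and without phenylephrine (PE), an agonist of alpha-adrenergic receptors that induces hypertrophic growth of these cells in culture. Members were the protein-coding genes whose symbol belongs to the SLC1, SLC3, SLC6, SLC7, SLC36, SLC38 or SLC43 families, without Slc6a8, the creatine carrier. The rule found 61 genes of 32883, and the 44 with a summed count of at least 15 over the libraries are described. The rule itself used only names and this minimum, and no difference between the groups, but it was set with earlier results of these data known. At the minimum, Slc36a3 had 22 counts in all and was kept, and Slc6a13 had 12 and was not. One of the 44, Slc7a6os, is named for its place opposite Slc7a6 and is not a carrier.

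All libraries came from ventricles of Sprague-Dawley rats at postnatal day 2. The cells were first plated so that non-cardiomyocytes attached and were removed, then cultured in high-glucose DMEM with pyruvate, GlutaMAX (a stable glutamine dipeptide) and 10% fetal bovine serum. The 2 PE libraries were from cells given PE at 20 µM for 24 h, and the 2 control libraries were from untreated cells. Strand-specific, rRNA-depleted RNA-seq was used, and nothing in the labels says that replicates were separate cultures, so the p-values rest on the spread between libraries, which may be technical. Total counts ran from 45637881 to 56948370, of which the members took 0.201% to 0.228% in each library. The share of counts from the mitochondrial genome was 11.7% in control replicate 2 and 4.61% to 6.19% in the others. Of the cardiomyocyte markers, 6 of the 7 listed were found by name and ranged from 1022 to 3866 CPM over the libraries. CPM is the count per 1000000 after scaling by trimmed mean of M values (TMM). Fibroblast markers were also abundant, and their summed level was 15987 and 12697 CPM in the controls and 8191 and 8604 CPM with PE. Col1a1 and Col3a1 made up most of that sum, at log2 fold changes of -0.59 and -1.35. Col3a1 fell, as did Pdgfra at -0.67, and Col1a1 did not pass. Dcn, Lum and Tcf21 were at log2 fold changes of 0.50, 0.11 and 0.04 and did not pass.

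Cells take up amino acids through carriers of several families. The SLC7 light chains reach the membrane only when bound to a heavy chain, Slc3a2 (CD98) or Slc3a1, and exchange one amino acid for another. SLC1 carriers bring in glutamate, aspartate or small neutral amino acids with sodium, and most SLC38 carriers bring in glutamine, alanine and other neutral amino acids. SLC36 and some SLC38 proteins sit on lysosomes, where they take part in the signal from amino acids to mTORC1, the kinase complex that drives protein synthesis. SLC6 carriers use sodium and chloride to bring in noradrenaline, taurine, betaine, glycine and other solutes. Many carrier genes are targets of ATF4, the transcription factor of the amino acid stress response.

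With PE, 4 of the 40 tested genes rose. These were Slc7a1 and Slc7a6, which carry arginine and lysine, and Slc1a1 and Slc1a3, which carry glutamate and aspartate. Another 6 fell, namely Slc6a17, Slc38a6, Slc6a12, Slc7a4, Slc6a2 and Slc7a9. The other 30 did not pass edgeR's quasi-likelihood test at an adjusted p under 0.05 over all genes. Of all 15257 genes tested, 15.7% passed, 7.39% upward and 8.3% downward, against 25% of the members. The members that fell include Slc6a2 and Slc7a9, which reached the expression filter of 0.2 CPM only in the controls and were tested through that group alone, so the share is given as a description. The members' log2 fold changes were split evenly, with 20 above and 20 below 0 and a median of 0.01, and the median over all genes was -0.01. Both PE libraries lay above both controls in 10 members and below them in 13, where 28.5% and 28.1% of all genes tested did so.

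**Figure D1:**
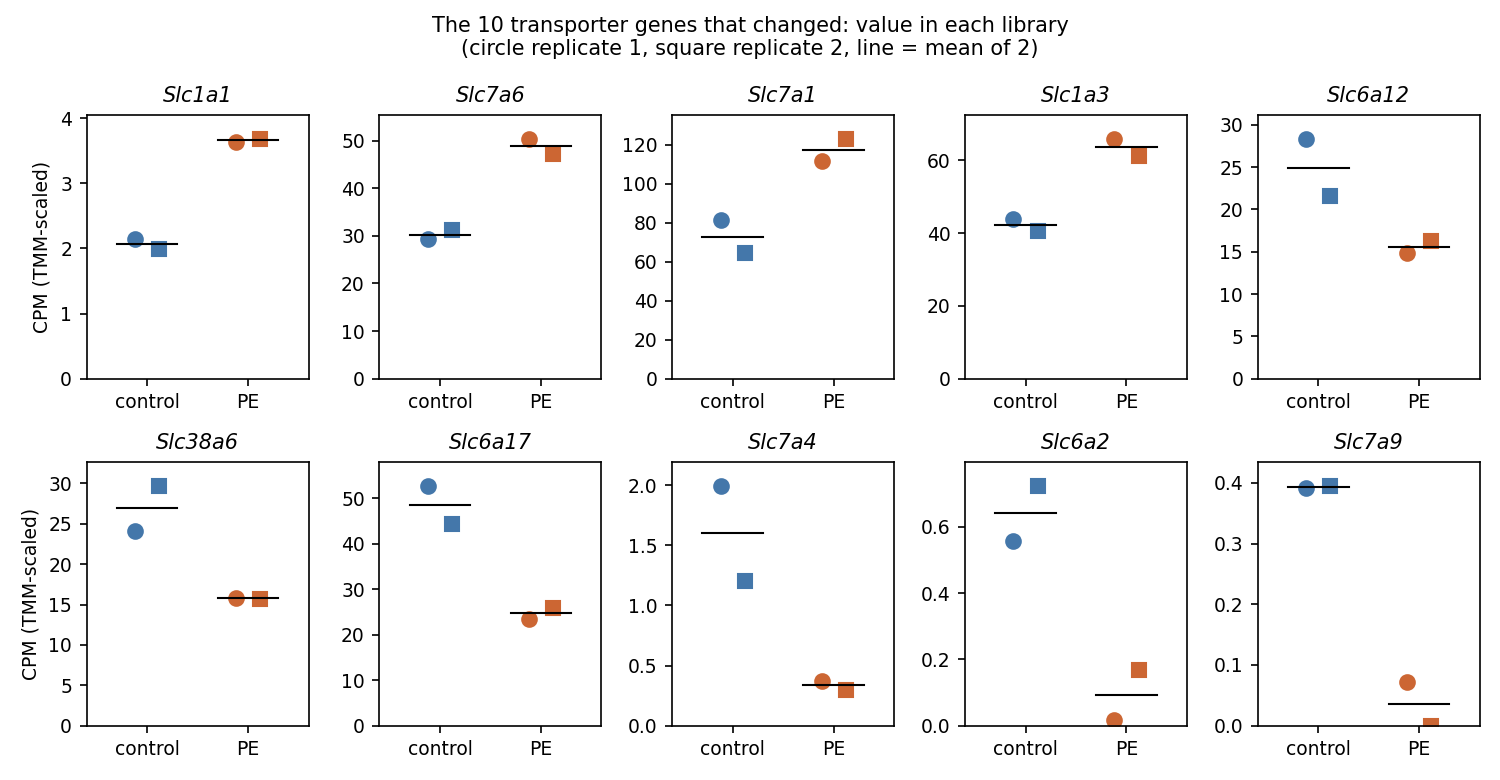
Library-scaled read counts (CPM, y axis from 0) of the 10 transporter genes that passed, in each control and PE library. Circles are replicate 1, squares replicate 2 and lines the mean of the 2 libraries. In every panel the PE libraries lie on one side of both controls, and the lower row holds the larger falls, with Slc6a2 and Slc7a9 under 1 CPM throughout.

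Slc7a1 (ENSRNOG00000000924), the main uptake carrier for arginine and lysine in many cells, stood at 81.3 and 64.3 CPM in the controls and 112 and 123 CPM with PE. Both PE libraries were above both controls, and the controls differed 1.26-fold from each other. The rise was 1.61-fold, with a log2 fold change of 0.69 ± 0.17 (SE; edgeR adjusted p = 0.0238). Slc7a6 (ENSRNOG00000019943), a light chain that exports arginine in exchange for glutamine, was at 29.3 and 31.3 CPM in the controls and 50.4 and 47.2 CPM with PE. Its replicates were close in both groups, and the log2 fold change was 0.69 ± 0.16 (edgeR adjusted p = 0.0162).

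Slc1a3 (ENSRNOG00000016163), a glutamate and aspartate carrier best known from glia, was at 43.8 and 40.6 CPM in the controls and 66 and 61.2 CPM with PE. Its mean went from 42.2 ± 2.26 CPM to 63.6 ± 3.37 CPM (SD, n = 2), a log2 fold change of 0.59 ± 0.16 by edgeR (adjusted p = 0.0324). Slc1a1 (ENSRNOG00000014816), which carries glutamate and cysteine, was read far less, with 115 and 91 counts in the controls and 204 and 174 with PE, or 2.14, 2, 3.63 and 3.69 CPM. The groups did not overlap, and the log2 fold change was 0.82 ± 0.24 (edgeR adjusted p = 0.0436). In the authors' deposited table, a DESeq2 comparison, Slc1a1 did not pass (adjusted p = 0.076). Of 3 other scalings, it missed the threshold with library sizes alone and with upper-quartile factors (edgeR adjusted p = 0.0552 and 0.0503). In the RefSeq table Slc1a1 overlaps Spata6l, and reads of overlapping genes cannot be told apart without the strand setting, which is not given in the sources used here.

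The sizes of these 4 rises held when a PE library was left out, but the calls did not. Without PE replicate 1 the log2 fold changes were 0.76 for Slc7a1, 0.65 for Slc7a6, 0.54 for Slc1a3 and 0.84 for Slc1a1 (edgeR adjusted p = 0.19, 0.318, 0.479 and 0.224). Without PE replicate 2 they were 0.63, 0.74, 0.65 and 0.82 in the same order (edgeR adjusted p = 0.348, 0.185, 0.304 and 0.219). In those fits the spread comes from the control pair alone. All 4 passed without control replicate 1 and without control replicate 2, where the spread comes from the PE pair alone.

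Among the falls, Slc6a17 (ENSRNOG00000050090), known as a neutral amino acid carrier of synaptic vesicles, was at 52.7 and 44.4 CPM in the controls and 23.5 and 25.9 CPM with PE. Control levels were 1.97-fold those with PE, a log2 fold change of -0.98 ± 0.17 (edgeR adjusted p = 0.00369). It was at -0.90 without PE replicate 1 and did not pass there (edgeR adjusted p = 0.111). Slc38a6 (ENSRNOG00000022622), of the glutamine carrier family, was at 24.1 and 29.7 CPM in the controls and 15.8 and 15.7 CPM with PE. The PE libraries were nearly equal and both lay below the controls (log2 fold change -0.77 ± 0.18, edgeR adjusted p = 0.0171). In the RefSeq table this gene overlaps Trmt5, on the other strand, and the pseudogenes Rpl26-ps13 and Rpl26-ps4, so its reads are uncertain in the same way.

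Slc6a12 (ENSRNOG00000013547), which carries betaine and GABA, was at 28.4 and 21.5 CPM in the controls and 14.9 and 16.3 CPM with PE. It fell by 0.68 ± 0.19 on the log2 scale (edgeR adjusted p = 0.0397). Leaving out control replicate 1 gave -0.46, and leaving out control replicate 2 gave -0.86. Slc38a6 and Slc6a12 did not pass without PE replicate 1 (-0.77 and -0.61, edgeR adjusted p = 0.226 and 0.417) or without PE replicate 2 (-0.76 and -0.74, edgeR adjusted p = 0.225 and 0.247).

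The other falls were those of genes with few reads. Slc7a4 (ENSRNOG00000001874), a relative of the cationic carriers whose own transport is not established, had 107 and 55 counts in the controls and 21 and 14 with PE. Its log2 fold change was -2.24 ± 0.42 (edgeR adjusted p = 0.00527), and it passed without each of the 4 libraries in turn, between -2.55 and -1.83. It overlaps an annotated long noncoding RNA, LOC108352364, in the RefSeq table. Slc6a2 (ENSRNOG00000016311), the noradrenaline carrier that sympathetic nerve endings use for reuptake, had 30 and 33 counts in the controls and 1 and 8 with PE. All of its values were under 1 CPM, and both PE libraries were below both controls (log2 fold change -2.81 ± 0.74, edgeR adjusted p = 0.0277). It entered the test through the controls alone, and it also passed with no filter. It was at -1.90 without PE replicate 1 and did not pass (edgeR adjusted p = 0.221), and at -4.98 without PE replicate 2.

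Slc7a9 (ENSRNOG00000012344), the light chain of the kidney cystine carrier, had 21 and 18 counts in the controls and 4 and 0 with PE. Its log2 fold change of -3.28 ± 0.87 (edgeR adjusted p = 0.0294) was -7.27 without PE replicate 1, when only the library at 0 was left and the fitted value depends on the prior count, and -2.42 without PE replicate 2, where it did not pass (edgeR adjusted p = 0.215). It too entered the test through the controls alone and passed with no filter. In the authors' deposited table it did not pass (adjusted p = 0.0544). That table held 8 of the 10 genes at an adjusted p under 0.05, 3 higher and 5 lower, where 8.13% and 8.65% of all genes with an adjusted p in the DESeq2 fit of these counts passed in each direction.

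Summed marker levels were lower with PE for endothelial, macrophage, epicardial and fibroblast markers, but not for smooth muscle or neuron markers. Of 6 endothelial markers found by name, 5 fell, and their summed level was 213 and 213 CPM in the controls and 126 and 130 CPM with PE. Of 7 macrophage markers, 3 fell and 4 did not pass, with summed levels of 160 and 183 CPM against 102 and 107 CPM. Of 6 epicardial and mesothelial markers, 3 fell, 1 rose and 2 did not pass, with sums of 239 and 197 CPM against 140 and 138 CPM. Of the 6 tested fibroblast markers, 2 fell and 4 did not pass, and Col1a2 was under 1 CPM in every library. Of the smooth muscle and pericyte markers, 1 of 6 rose and 1 fell, and their summed level was between 799 and 993 CPM in all libraries. The neuron and Schwann cell markers summed to 21.7 and 23.7 CPM in the controls and 27 and 26 CPM with PE, and none of the 4 tested passed in edgeR (2 at an unadjusted p under 0.05). Of those 4, 2 were above 0 and 2 below. Dbh, also in the list of monoamine metabolism, made up much of the sum. It was at 12.1 and 12.5 CPM in the controls and 17.3 and 16.4 CPM with PE. Sox10 was lower, at a log2 fold change of -1.06 (edgeR adjusted p = 0.0542). In that list Th, the enzyme that starts noradrenaline synthesis, was under 0.1 CPM in every library. In these bulk samples fewer cells of a type and less RNA per cell cannot be told apart. The part of other cells in the fall of Slc6a17, Slc38a6, Slc6a12, Slc7a4, Slc6a2 and Slc7a9 was not tested. Nor was it tested for the rise of Slc7a1, Slc7a6, Slc1a1 and Slc1a3.

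Upstream sequence was read from RefSeq promoter windows of the GRCr8 build, with 250 bases before each annotated start searched. Windows matched 33 of the 44 genes by symbol, with 37 windows in all. The unmatched genes are Slc1a1, Slc1a5, Slc38a10, Slc38a3, Slc43a3, Slc6a15, Slc6a2, Slc6a4, Slc7a2, Slc7a3 and Slc7a4. The 150 bases before the start are shown for the genes that passed at a mean of at least 10 CPM, to set those that rose beside those that fell. They run 5′ to 3′ on the gene's strand, with CG dinucleotides in capitals. Slc1a3 has 3 such overlapping windows, of which the first by position is shown. These starts are RefSeq's, and which start the cells used was not measured.
Slc7a1 (chr12:11664338-11664487, plus strand): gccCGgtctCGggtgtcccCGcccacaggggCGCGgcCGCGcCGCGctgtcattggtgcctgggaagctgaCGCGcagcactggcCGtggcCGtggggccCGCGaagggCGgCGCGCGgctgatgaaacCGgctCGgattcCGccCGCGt
Slc7a6 (chr19:50993356-50993505, plus strand): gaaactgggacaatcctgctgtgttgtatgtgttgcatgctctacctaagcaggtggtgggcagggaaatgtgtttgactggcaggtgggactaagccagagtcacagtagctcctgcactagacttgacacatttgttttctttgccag
Slc1a3 (chr2:59557788-59557937, minus strand): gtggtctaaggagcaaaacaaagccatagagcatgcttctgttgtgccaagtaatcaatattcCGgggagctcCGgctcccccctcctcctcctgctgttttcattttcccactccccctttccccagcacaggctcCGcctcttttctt
Slc38a6 (chr6:97723376-97723525, plus strand): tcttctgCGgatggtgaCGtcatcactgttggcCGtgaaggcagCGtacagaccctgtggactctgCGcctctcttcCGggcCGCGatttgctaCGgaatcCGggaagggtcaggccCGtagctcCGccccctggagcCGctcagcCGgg
Slc6a17 (chr2:197843884-197844033, minus strand): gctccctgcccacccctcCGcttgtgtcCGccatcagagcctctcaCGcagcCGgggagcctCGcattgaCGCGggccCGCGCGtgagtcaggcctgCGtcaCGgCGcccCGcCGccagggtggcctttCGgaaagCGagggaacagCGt
Slc6a12 (chr4:156257368-156257517, plus strand): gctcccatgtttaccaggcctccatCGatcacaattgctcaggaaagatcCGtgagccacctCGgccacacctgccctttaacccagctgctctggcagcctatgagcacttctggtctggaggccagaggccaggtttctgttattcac

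The stretches differed as much within each direction as between them. Among the genes that rose, CG dinucleotides numbered 24 for Slc7a1, 0 for Slc7a6 and 3 for Slc1a3, with 5 in each of the Slc1a3 windows not shown. Among those that fell, they numbered 14 for Slc38a6, 18 for Slc6a17 and 3 for Slc6a12. Over 250 bases the member windows held a median of 11, and windows of all protein-coding genes 8.

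A search of both strands for 4 short elements gave few matches in the genes that passed. The C/EBP-ATF composite element that ATF4 binds, searched as TGATGNAA, was found in Slc7a1, starting 30 bases before the start, and also in Slc1a4 and Slc38a1. It was in 3.4% of all 33469 windows and 9.09% of the 33 matched genes. Of those windows, 21842 were of protein-coding genes, and a matched gene with several windows was counted once. The shares of windows and of genes therefore differ in unit, here and for the other elements. For the AP-1 element the loose pattern TGANTCA was searched, with any base in the middle. It lay 66 bases before the start of Slc6a17 and was in 6.34% of all windows and 15.2% of the matched genes. The matched letters were TGAGTCA in Slc6a17 and Slc3a1, TGAATCA in Slc1a7 and Slc38a1, and TGATTCA in Slc38a7. The shares count all of these spellings. The cAMP response element TGACGTCA lay 136 bases before the start of Slc38a6, and 1.59% of all windows held it. The E-box CACGTG was found in Slc1a4, Slc36a1, Slc38a7, Slc43a1 and Slc7a5, none of which passed, and in 5.59% of all windows. A match of letters is a description and not a bound site, and no 2 of these elements overlapped in the genes named.

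**Figure D2:**
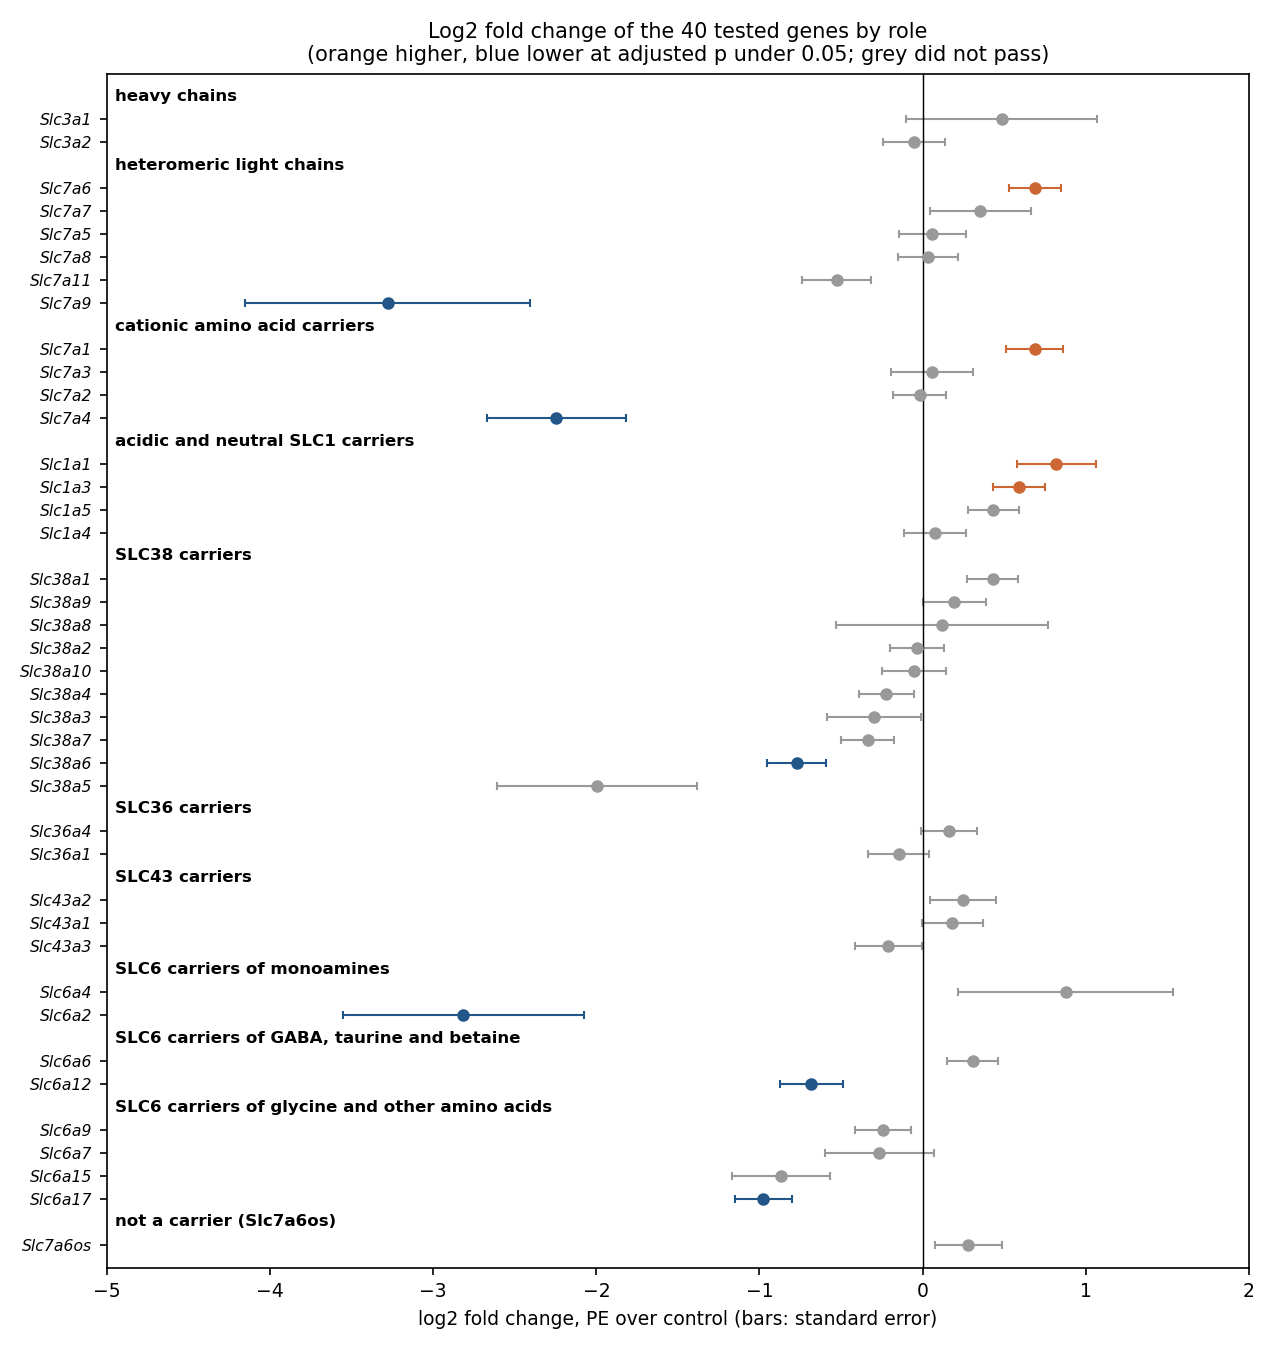
Log2 fold change of PE over control (x axis) with its standard error for the 40 tested genes, ordered by role. Orange points rose, blue points fell and grey points did not pass at an adjusted p under 0.05. The 4 SLC1 genes are all above 0, and the 4 SLC6 carriers of glycine and other amino acids are all below it.

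By role, the heavy chains did not pass. Slc3a2 (ENSRNOG00000018487), the partner of most light chains, was at 202 and 143 CPM in the controls and 167 and 166 CPM with PE. The PE libraries fell between the controls, which differed 1.42-fold, and the log2 fold change was -0.05 ± 0.19. Slc3a1, the partner of Slc7a9, had 18 and 11 counts in the controls and 32 and 11 with PE, with overlapping groups.

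Of the 6 tested light chains, Slc7a6 rose, Slc7a9 fell and 4 did not pass. Slc7a5 (ENSRNOG00000018824), the carrier of leucine and other large neutral amino acids, was at 109 and 74.5 CPM in the controls and 86.6 and 105 CPM with PE, so the groups overlapped (log2 fold change 0.06 ± 0.21). Slc7a8, of similar substrates, was at 0.03 ± 0.18, and Slc7a7, the relative of Slc7a6 found in macrophages and epithelia, at 0.35 ± 0.31. Slc7a11, which imports cystine in exchange for glutamate, was at 24.4 and 33.1 CPM in the controls and 22.8 and 17.2 CPM with PE. Both of its PE libraries were below both controls, yet the log2 fold change of -0.53 ± 0.21 did not pass (edgeR adjusted p = 0.131). With control replicate 1 left out it passed at -0.72, and with control replicate 2 left out it was at -0.29.

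Besides Slc7a1 and Slc7a4, the cationic carriers Slc7a2 and Slc7a3 did not pass, at -0.02 ± 0.16 and 0.06 ± 0.25. Slc7a2 was at 42.8 and 41.6 CPM in the controls and 44 and 39.3 CPM with PE. Its replicates were close and the groups overlapped.

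In the SLC1 family, Slc1a5 (ENSRNOG00000015948), a glutamine carrier of growing cells, was at 62 and 58.8 CPM in the controls and 79.9 and 83.4 CPM with PE. The groups did not overlap, and the log2 fold change of 0.43 ± 0.16 did not pass (edgeR adjusted p = 0.0944). It passed without control replicate 1 (0.48, edgeR adjusted p = 0.0125) and without control replicate 2 (0.40, edgeR adjusted p = 0.0395). Slc1a4 (ENSRNOG00000005248), which carries alanine, serine and cysteine, was at 82.2 and 59.6 CPM in the controls and 70.5 and 79.1 CPM with PE. Its groups overlapped, with a log2 fold change of 0.08 ± 0.19. The glial and retinal carriers Slc1a2 and Slc1a7 were under the expression filter, with 7, 7, 15 and 7 counts and 11, 6, 4 and 4 counts in control replicates 1 and 2 and PE replicates 1 and 2.

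Among the 10 SLC38 genes, Slc38a6 fell and 9 did not pass. Slc38a2 (ENSRNOG00000006305), the carrier whose gene responds to amino acid shortage in many cells, took 32.9% to 38.2% of all member counts in each library. This is a share of reads and not of molecules, since transcript lengths were not used. It was at 756 and 769 CPM in the controls and 775 and 715 CPM with PE, with overlapping groups and a log2 fold change of -0.03 ± 0.16. Slc38a1 (ENSRNOG00000005291), a close relative that brings in glutamine, was at 84.7 and 92.8 CPM in the controls and 120 and 120 CPM with PE. The groups did not overlap, and its log2 fold change of 0.43 ± 0.16 did not pass (edgeR adjusted p = 0.0948), though it did without control replicate 2 (0.50, edgeR adjusted p = 0.00559).

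Slc38a7 (ENSRNOG00000012007), a lysosomal exporter of glutamine, was at 62.1 and 57.3 CPM in the controls and 44.2 and 50.4 CPM with PE. Both PE libraries were lower, with a log2 fold change of -0.34 ± 0.16 (edgeR adjusted p = 0.212), and with control replicate 2 left out it passed (-0.39, edgeR adjusted p = 0.0423). Slc38a9, the lysosomal arginine sensor of mTORC1, was at 9.95 and 12.5 CPM in the controls and 12.7 and 13 CPM with PE (log2 fold change 0.20 ± 0.20). Slc38a10 (ENSRNOG00000004604) was at 154 and 106 CPM in the controls and 123 and 128 CPM with PE, so that the controls enclosed both PE values. Its log2 fold change was -0.05 ± 0.19.

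Slc38a5, a glutamine carrier of exocrine and red-cell precursors, had 43 and 21 counts in the controls and 5 and 11 with PE. Control levels were 3.99-fold those with PE, just outside the threshold (edgeR adjusted p = 0.0529). Unlike Slc6a2 and Slc7a9, Slc38a5 reached the expression filter of 0.2 CPM in 3 libraries, namely both controls and PE replicate 2. Its log2 fold change passed when PE replicate 2 (-2.79) or control replicate 2 (-2.33) was left out, and missed the threshold when PE replicate 1 (-1.43) or control replicate 1 (-1.53) was. Slc38a3, Slc38a4 and Slc38a8 were at -0.30 ± 0.29, -0.22 ± 0.17 and 0.12 ± 0.65.

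None of the SLC36 or SLC43 genes passed in edgeR, and none had an unadjusted p under 0.05 or passed with DESeq2. Slc36a1, a proton-coupled carrier of lysosomes, and its relative Slc36a4 were at -0.15 ± 0.19 and 0.16 ± 0.17, and Slc36a3 was under the filter with 13, 2, 1 and 6 counts. Slc43a1 and Slc43a2, carriers of large neutral amino acids, were at 0.18 ± 0.19 and 0.25 ± 0.20, and Slc43a3, a carrier of purine bases, was at -0.21 ± 0.20. Without control replicate 1, Slc43a2 passed at 0.47 and Slc43a3 at -0.43 (edgeR adjusted p = 0.0389 and 0.0416), with the spread from the PE pair alone.

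Of the 8 tested SLC6 genes, Slc6a2, Slc6a12 and Slc6a17 fell and 5 did not pass. Slc6a6 (ENSRNOG00000009019), the taurine carrier, whose substrate is very abundant in heart muscle, was at 133 and 120 CPM in the controls and 156 and 158 CPM with PE. Both PE libraries were above both controls, and the log2 fold change of 0.31 ± 0.16 did not pass (edgeR adjusted p = 0.231), except without control replicate 1 (0.39, edgeR adjusted p = 0.036). The glycine carrier Slc6a9 was at -0.24 ± 0.17, the proline carrier Slc6a7 at -0.27 ± 0.34 and Slc6a15, a neuronal carrier of neutral amino acids, at -0.87 ± 0.30 (edgeR adjusted p = 0.0804). Slc6a15 passed without control replicate 1 (-1.02, edgeR adjusted p = 0.0223). The serotonin carrier Slc6a4 had 5 and 13 counts in the controls and 16 and 19 with PE, and Slc6a16 was under the filter with 8, 12, 8 and 1 counts.

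Slc7a6os, a gene named as opposite in strand to Slc7a6, was at 9.37 and 10.3 CPM in the controls and 13.6 and 10.3 CPM with PE. It did not pass (log2 fold change 0.28 ± 0.21), and its span does not overlap that of Slc7a6 in the RefSeq table. Of the 17 genes that matched the rule but had under 15 counts, 12 had none in any library, among them the epithelial carriers Slc6a14, Slc6a18 and Slc6a19. A count of 0 allows up to 3 counts, or 0.0527 to 0.0657 CPM of each library's total, from counting error alone. The 5 with a few counts were Slc6a13 (12 in all), Slc7a10 (10), Slc6a5 (3), Slc6a20 (3) and the dopamine carrier Slc6a3 (1).

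**Figure D3:**
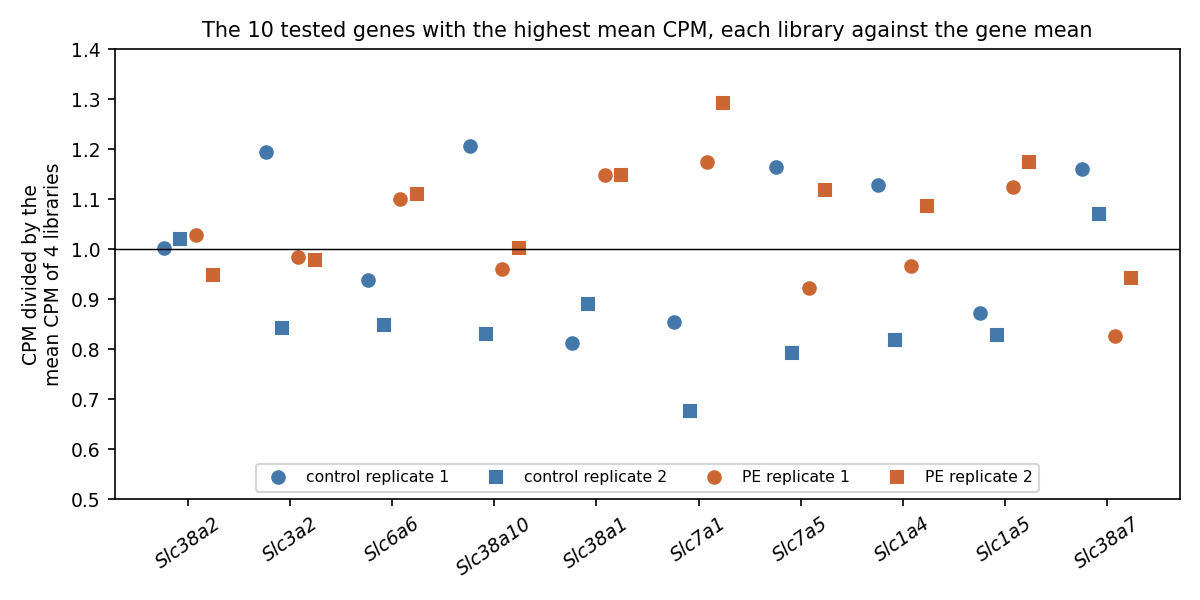
CPM of the 10 tested members with the highest mean CPM, each divided by the mean of its 4 libraries (y axis, dimensionless). Control replicate 1 (blue circles) lies above control replicate 2 (blue squares) in all but Slc38a2 and Slc38a1, and by over 1.35-fold in Slc3a2, Slc38a10, Slc7a5 and Slc1a4, where the PE libraries lie between or overlap them.

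The controls differed from each other more than the PE libraries did. Among the 27 tested members with a mean of at least 10 CPM, the controls differed by over 1.2-fold in 12, and the PE libraries in 3. Control replicate 1 was the higher one in 17 of the 27. Slc3a2, Slc38a10, Slc7a5 and Slc1a4 were 1.42-fold, 1.45-fold, 1.47-fold and 1.38-fold higher in control replicate 1, while Slc7a11 and Slc43a3 were at 0.738-fold and 0.714-fold. These are descriptions of 2 libraries, with no test. In data simulated from these libraries for 15257 genes, 48, 49, 49 and 50 genes were changed by 1.5-fold, 2-fold, 4-fold and 8-fold. Recovery was 16.7% at a 1.5-fold change, 55.1% at 2-fold, 98% at 4-fold and 100% at 8-fold, and 12 calls were false. Far fewer genes were changed there than the 2393 that passed here, so these recoveries may not hold for the real data.

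Other genes of amino acid handling were taken from 6 lists chosen with earlier results of these data known, and are described by their counts. In the amino acid stress response, 1 of 23 tested genes rose and 3 fell, with a median log2 fold change of 0.10. That is 17.4%, near the 15.7% of all genes that passed. Both PE libraries lay above both controls in 11 of the 23 genes and below them in 6. Atf3, a stress transcription factor, rose by 1.03 ± 0.22 on the log2 scale. In the same list Ddit3, Trib3 and Sesn2 fell by 1.03 ± 0.22, 0.83 ± 0.20 and 0.64 ± 0.19. Atf4 itself was at 0.12 ± 0.17, and Asns, asparagine synthetase, at 0.40 ± 0.16 did not pass. Fewer genes of that list passed in edgeR when a PE replicate was left out. Trib3 and Sesn2 were lost without PE replicate 1, and Atf3 and Ddit3 as well without PE replicate 2. More genes passed, in both directions, when a control replicate was left out. The median over the list stayed between 0.04 and 0.19.

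Of 35 genes of lysosomal amino acid sensing and mTORC1, 3 fell and none rose, which is 8.57% beside 15.7% of all genes. Rragd, a Rag GTPase, fell by 1.13 ± 0.17, and Fnip2, a partner of folliculin, by 0.85 ± 0.16. Sesn2, a leucine sensor that stands in both lists, is the third. Only the fall of Rragd passed without PE replicate 1 and without PE replicate 2. More genes of the list passed, in both directions, when a control replicate was left out. The median over the list was -0.13, and between -0.24 and -0.04 with a library left out.

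Among other carriers of amino acids and peptides, 1 of 18 rose and 2 fell, or 16.7% beside 15.7% of all genes. Slc16a10, which carries aromatic amino acids, fell from 10.5 and 9.68 CPM to 2.1 and 2.41 CPM, a log2 fold change of -2.16 ± 0.22 (edgeR adjusted p = 0.000144). Slc15a3, a lysosomal peptide carrier, fell by 0.66 ± 0.17, and Slc15a2, a peptide carrier under 1 CPM in every library, rose by 2.01 ± 0.55. Of its controls, 1 was below the filter of 0.2 CPM and both PE libraries were above it. Neither of these passed without PE replicate 1 (edgeR adjusted p = 0.466 and 0.0751) or without PE replicate 2 (edgeR adjusted p = 0.257 and 0.164), and leaving out control replicate 1 gave 1.51 for Slc15a2 (edgeR adjusted p = 0.0885), which missed the threshold.

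Branched-chain amino acid breakdown had 8 of 25 genes lower and 2 higher, with a median of -0.41, beside the 15.7% of all genes that passed. Aldh6a1 and Mccc1, enzymes of valine and leucine breakdown, fell by 1.04 ± 0.17 and 1.15 ± 0.18, Bckdha, of the branched-chain ketoacid dehydrogenase, by 1.03 ± 0.20, and Klf15, a transcription factor of this pathway, by 1.58 ± 0.19 on the log2 scale. The falls numbered 3 without PE replicate 1, 2 without PE replicate 2, 12 without control replicate 1 and 11 without control replicate 2. In those fits the median over the list stayed between -0.47 and -0.37.

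In arginine, nitric oxide and monoamine metabolism, 3 of 18 rose and 1 fell, or 22.2% beside 15.7% of all genes. Ass1, which makes argininosuccinate, rose by 1.46 ± 0.18, Ddah1, which clears methylated arginine, by 1.36 ± 0.16, and Gatm, which uses arginine in the first step of creatine synthesis, by 1.95 ± 0.21. Gamt, of the second step, fell by 2.21 ± 0.26 on the log2 scale. All of these 4 passed without each library in turn. In glutamine, glutamate, cysteine and glutathione metabolism, 2 of 20 rose and 3 fell, or 25% beside the same 15.7%. Ggt7, of the gamma-glutamyltransferase family, rose by 1.48 ± 0.22 and Cth, which makes cysteine, by 1.15 ± 0.30, while Cdo1 and Fmo1, of cysteine oxidation and taurine synthesis, fell by 1.28 ± 0.28 and 1.24 ± 0.30 on the log2 scale. Cth did not pass without PE replicate 1 or PE replicate 2 (edgeR adjusted p = 0.163 and 0.089), nor Fmo1 without PE replicate 2 (-0.90, edgeR adjusted p = 0.113).

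**Figure D4:**
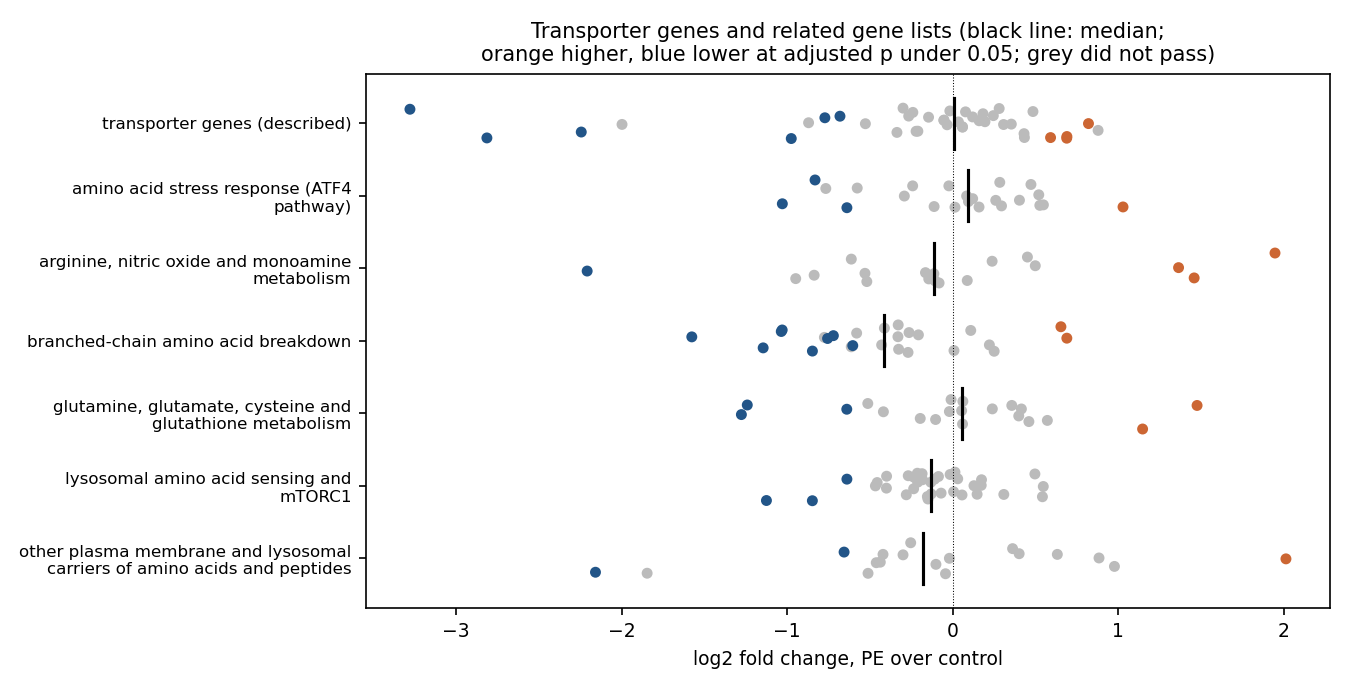
Log2 fold change of PE over control (x axis) for the 40 tested transporter genes and 6 lists of related genes, 1 point per gene with random vertical spread. Black lines are medians, orange points rose, blue points fell and grey points did not pass. The median is 0.01 for the transporter genes and -0.41 for branched-chain amino acid breakdown.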

How the data were processed

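The authors deposited raw counts per gene for 4 libraries. Cutadapt 2.0, STAR 2.4.2a, featureCounts 1.6.4 and the build Rnor_6.0 are named per the submitters' processing notes, which give neither parameters nor the strand setting of the counting. The authors' deposited comparison table holds log2 fold changes with standard errors, p-values, a test score and a mean normalized signal per gene, per the file headers. All 20666 of its log2 fold changes were within 1e-06 of a DESeq2 fit of the counts, and both called 2555 genes. Gene names came from it.

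Groups came from the sample titles. Counts were tested with edgeR 4.0.16 (limma 3.58.1, R 4.3.3; quasi-likelihood F test, TMM factors 0.982 to 1.03, default expression filter, minimum count 10 and total 15), which kept 15257 genes, with Benjamini-Hochberg adjustment over all of them and 2 residual and 8.1 prior degrees of freedom. The SE is the log2 fold change divided by the square root of F. The script was tested on simulated data. The members and lists were chosen with earlier results of these data known. Values per library are given for members that passed and for the 10 with the highest mean CPM, and for some others chosen after their values were seen. From each list up to 4 genes with the largest change among those that passed are named, and Atf4 and Asns were chosen after their values were seen. Where a symbol had several identifiers, the one with the most counts was used. Alternatives were DESeq2 1.42.0, 3 other scalings, no filter, mitochondrial genes left out, each library left out and a replicate block.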

Additional observations from a re-analysis of the deposited data

How the results depend on the processing

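The 10 transporter genes that passed kept their direction under all 11 alternative settings, and Slc7a4 passed under all of them. Leaving out 1 library gave 1205 to 4755 changed genes in place of 2393, 0 to 7 transporter genes higher in place of 4, and 2 to 9 lower in place of 6. These counts fell without a PE library, when the spread comes from the control pair, and grew without a control library. DESeq2 called 3 higher and 5 lower, library sizes alone 3 and 7, upper-quartile factors 3 and 6, and no filter 4 and 8, while DESeq2 size factors in edgeR and leaving out mitochondrial genes gave 4 and 6. With the replicate number as a block, 1964 genes changed, 0 transporter genes were higher and 5 lower. The labels do not say that libraries of the same number belong together, and the deviations of these from the group means correlated at -0.23. A crossed pairing, added after seeing the data, gave 4677 changed genes, 6 higher and 10 lower. The cause of these differences was not tested.

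Signs changed when 1 library was left out for genes near 0 or with few reads. Lowest and highest log2 fold changes were -0.13 and 0.33 for Slc1a4, -0.32 and 0.064 for Slc36a1, -0.30 and 0.25 for Slc38a10, -0.088 and 0.030 for Slc38a2, -0.54 and 1.53 for Slc38a8, -0.31 and 0.98 for Slc3a1, -0.28 and 0.23 for Slc3a2, -0.43 and 0.054 for Slc43a3, -0.10 and 0.069 for Slc7a2, -0.20 and 0.40 for Slc7a3, -0.19 and 0.37 for Slc7a5, -0.10 and 0.72 for Slc7a7 and -0.042 and 0.12 for Slc7a8. Slc7a8 was also at -0.013 with library sizes alone. None of these genes passed in any of those fits except Slc43a3 without control replicate 1.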
